A study of Mus musculus with 24 samples.

Results

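Ngfr and genes of the neurotrophin system were followed in optogenetically exercised muscle tissues. The 5 genes are the receptor genes Ngfr and Sort1 and the ligand genes Bdnf, Ntf3, and Ntf5. They were picked by name from the 56941 genes listed in the data, with earlier results of the same data in view. For this reason their levels and differences are described without p-values. C2C12, a mouse myoblast line that fuses into contractile myotubes, carried ChR2::tdTomato, a light-gated cation channel joined to a red fluorescent protein. The cells were grown on fibrin hydrogel, differentiated, and given 60 min of light pulses daily at 1, 4, or 10 Hz, and the control received no light. Each condition had 6 libraries, or 24 in all. Every group shared the channel and came from the same line, so the replicates are tissues of 1 line, and the p-values given for other genes measure only the spread between them. The study describes spontaneous twitching in all conditions, so the control may not have been free of contraction.

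Neurotrophins are small secreted proteins that act on neurons and are also made by skeletal muscle. They are made as larger precursors that are cut by proteases such as furin and plasmin. The mature forms act through receptor kinases of the Trk family, such as TrkB and TrkC (Ntrk2 and Ntrk3). Every mature neurotrophin also binds p75NTR, the product of Ngfr, which belongs to the tumor necrosis factor receptor superfamily and has no kinase. The precursors bind p75NTR together with sortilin, the product of Sort1, which also sorts cargo inside cells and is a component of the glucose transporter vesicles of muscle and fat. In the muscle lineage, Ngfr is known from myoblasts and Bdnf from muscle progenitors and contracting muscle.

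Ngfr (ENSMUSG00000000120) lies on the minus strand of chr11:95459638-95478561 in GRCm39. Bdnf (ENSMUSG00000048482) lies on the plus strand of chr2:109505045-109557475, and Sort1 (ENSMUSG00000068747) on the plus strand of chr3:108191285-108268842. The promoters of Ngfr and Bdnf are shown because these 2 genes had the largest differences between frequencies and moved in opposite directions. The sequences are from RefSeq (GRCm38.p6), run from 250 bases before to 50 bases after an annotated start, and each matched GRCm39 exactly once. Capitals mark E-boxes (CANNTG), a general site that MyoD and many other factors can bind. They also mark half-sites of the cAMP response element (TGACG on either strand, here read as CGTCA). Bdnf has 7 RefSeq starts, and the 1 shown is the only one with such a half-site.

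Ngfr, chr11:95478475-95478774, minus strand: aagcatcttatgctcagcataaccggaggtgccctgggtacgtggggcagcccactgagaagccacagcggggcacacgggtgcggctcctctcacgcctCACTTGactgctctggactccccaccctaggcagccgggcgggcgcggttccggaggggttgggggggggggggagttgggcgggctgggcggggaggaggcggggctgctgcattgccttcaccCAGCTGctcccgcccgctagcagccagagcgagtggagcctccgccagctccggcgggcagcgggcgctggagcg

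Bdnf, chr2:109522531-109522830, plus strand: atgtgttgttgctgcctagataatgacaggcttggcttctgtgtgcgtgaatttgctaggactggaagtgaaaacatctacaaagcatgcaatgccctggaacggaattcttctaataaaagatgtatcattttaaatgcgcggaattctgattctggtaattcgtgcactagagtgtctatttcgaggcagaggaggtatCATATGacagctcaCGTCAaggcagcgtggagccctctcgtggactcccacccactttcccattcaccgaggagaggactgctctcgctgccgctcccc

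The Ngfr promoter had a GC content of 71.7%, against a median of 52.7% over 32851 promoters of the same length. It held 2 E-boxes, 1 of them the myogenic form CAGCTG, and 4 GC boxes (GGGCGG). It held no TATA box (TATAAA) and no half-site of the cAMP response element. Over all promoters and both strands, an E-box was found in 72.3%, the myogenic form in 16.3%, a GC box in 35.7%, the half-site in 20.8%, and a TATA box in 13.6%. Of the 7 Bdnf promoters, 6 held an E-box, 1 held the myogenic form, 2 held a GC box, and 1 held the half-site. The myogenic form is also counted among the E-boxes. These matches describe letters only.

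Libraries held 8052369 to 18159144 estimated counts (median 10481932), and 13315 genes passed the filter on low counts. Levels are given as CPM, which are counts scaled to a common library size with TMM factors and compare libraries, and as TPM, which also accounts for transcript length and is used wherever genes are compared with each other. Of the 5 genes, 3 passed the filter: Ngfr, Bdnf, and Sort1. The labels call the cells myoblasts, but 8 myotube markers summed to between 8322 and 14913 TPM in every library, and 7 markers of undifferentiated myoblasts to between 67.5 and 138 TPM. In 5 libraries, 2 at 1 Hz and 3 at 4 Hz, cytosolic ribosomal protein genes made up more than 6% of the counts. Some results at those frequencies are therefore also given without these libraries.

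Ngfr, the p75NTR gene, was low at 1 and 4 Hz and at the level of the control at 10 Hz. Its level in the control had a lowest value of 4.32, a median of 5.49, and a highest value of 8.36 CPM. At 1 Hz the lowest, median, and highest values were 0.366, 0.958, and 1.56 CPM. At 4 Hz they were 0.499, 0.771, and 1.27 CPM. All 6 libraries at 1 Hz and all 6 at 4 Hz lay below the lowest control, and these groups overlapped each other. At 10 Hz the lowest, median, and highest values were 3.89, 5.16, and 8.47 CPM, which spanned the control range. Means were 5.96 ± 1.69 in the control, 0.901 ± 0.465 at 1 Hz, 0.811 ± 0.305 at 4 Hz, and 5.9 ± 1.82 CPM at 10 Hz (SD, n = 6 each).

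The log2(fold change) of Ngfr against the control was -2.78 (SE 0.28) at 1 Hz and -2.89 (SE 0.3) at 4 Hz, which is 6.87-fold and 7.42-fold lower. At 10 Hz it was -0.02 (SE 0.23). Ordered from the lowest log2(fold change), Ngfr stood in place 7 of 13315 genes at 1 Hz and in place 7 at 4 Hz. For comparison, 8.58% of all tested genes had all 6 libraries at 1 Hz below every control, and 14.7% did so at 4 Hz. Nothing is read from these shares, because Ngfr was chosen with its values known. Against each other, 10 Hz was higher than 4 Hz by a log2(fold change) of 2.87 (SE 0.3), with all 6 libraries above the highest at 4 Hz, where 10.8% of all genes showed the same separation. The difference between 4 and 1 Hz was -0.11 (SE 0.37), which is within its error.

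These levels rest on few reads. Ngfr had 46 to 120 counts per library in the control and 35 to 100 at 10 Hz, but 5 to 16 at 1 Hz and 4 to 10 at 4 Hz. The sums over 6 libraries were 476, 57, 45, and 363 counts in the control, 1 Hz, 4 Hz, and 10 Hz. Every library had a count, so Ngfr was low but detected at 1 and 4 Hz. Without the 5 libraries rich in ribosomal protein counts, Ngfr was at 1.16 ± 0.307 CPM at 1 Hz (SD, n = 4) and 0.68 ± 0.226 at 4 Hz (SD, n = 3), with a log2(fold change) of -2.35 and -3.18. A long noncoding RNA gene, Gm73698, overlaps Ngfr on the same strand in GENCODE M39 and has no row of its own in the values used here.

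**Figure D1:**
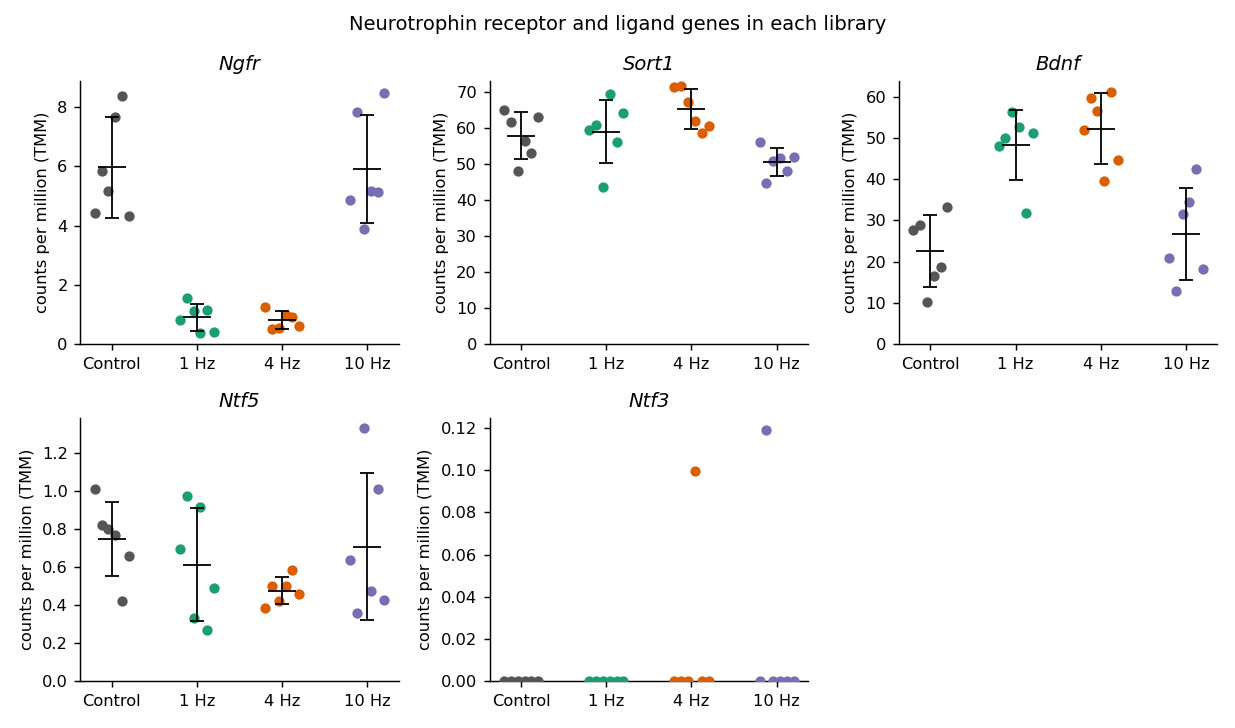
Level of the 5 neurotrophin receptor and ligand genes in CPM (y axis, linear from 0) in the control and at 1, 4, and 10 Hz, with 1 point per library and bars for the mean ± SD (n = 6, not drawn for Ntf3). Ngfr is at or under 1.56 CPM in all libraries at 1 and 4 Hz and at or over 3.89 CPM in all others, whereas Bdnf is highest at 1 and 4 Hz and Ntf3 has a count in only 2 libraries.

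Sort1, the sortilin gene, was the receptor gene with the higher level and differed little between conditions. In the control its lowest, median, and highest levels were 48.1, 59, and 65.1 CPM. At 1 Hz they were 43.6, 60.2, and 69.4 CPM, at 4 Hz 58.7, 64.5, and 71.6 CPM, and at 10 Hz 44.7, 51.3, and 56.2 CPM. Each stimulated group overlapped the control. For 1, 4, and 10 Hz in turn, the log2(fold change) against the control was 0.03, 0.17, and -0.19 (SE 0.093 each). Without the 5 libraries rich in ribosomal protein counts, it was -0.07 (SE 0.097) at 1 Hz and 0.11 (SE 0.11) at 4 Hz.

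In CPM the groups of Sort1 that did not overlap were 4 and 10 Hz, with all 6 libraries at 10 Hz below the lowest at 4 Hz. The log2(fold change) was -0.37 (SE 0.094) for 10 Hz against 4 Hz. This separation was found for 8.1% of all genes. In TPM the 2 groups overlapped, with 9.67 to 14.8 TPM at 4 Hz and 9.64 to 13.1 TPM at 10 Hz. On the TPM scale the direction against the control turned, with values of -0.18 at 1 Hz and -0.14 at 4 Hz by limma on log2(TPM + 1). On that scale the median of all genes was itself -0.14 at 1 Hz and -0.21 at 4 Hz, against 0.04 and 0.06 in the edgeR fit. At 10 Hz, where the median of all genes was 0.01, Sort1 stood in place 1328 of 13315 from the lowest.

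Per transcript length, Ngfr was below Sort1 in every group. Its mean level was 2.75 ± 0.805 TPM in the control, 0.381 ± 0.222 at 1 Hz, 0.299 ± 0.115 at 4 Hz, and 2.71 ± 0.941 at 10 Hz (SD, n = 6 each). Sort1 was at 13.1 ± 1.12, 11.5 ± 1.75, 11.8 ± 1.78, and 11.3 ± 1.35 TPM in the same order. Ngfr made up 17.4% ± 4.93 of the summed TPM of Ngfr and Sort1 in the control, 3.15% ± 1.74 at 1 Hz, 2.47% ± 0.895 at 4 Hz, and 19.1% ± 5.31 at 10 Hz (SD, n = 6 each). The share was at most 4.93% in any library at 1 or 4 Hz and at least 12.2% in any library of the other groups.

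The Trk receptor kinase genes described here had few or no counts. Ntrk2, which encodes the TrkB receptor of the BDNF protein, had 1 count in all 24 libraries together. Ntrk3, the TrkC gene, had 95 counts over 22 libraries, with at most 10 in any library. Neither passed the filter. Ntrk3 was at 0.263 ± 0.0972 CPM in the control, 0.549 ± 0.245 at 1 Hz, 0.209 ± 0.172 at 4 Hz, and 0.426 ± 0.151 at 10 Hz (SD, n = 6 each). A count of 0 in a library still allows a level of up to 3 counts, and this limit covers counting error only. Scaled by total counts without the TMM factors, the limit is 0.165 to 0.373 CPM, depending on depth. On the TMM scale of the other CPM values it can be higher. In replicate 3 at 4 Hz, 3 counts of Ntf5 were at 0.418 CPM. A level under that limit can be missed in a single library, but it can also be detected. The 1 count of Ntrk2 was at 0.0995 CPM, in replicate 4 at 4 Hz.

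Bdnf, the gene of brain-derived neurotrophic factor, was high where Ngfr was low. In the control its lowest, median, and highest levels were 10.2, 23.2, and 33.3 CPM. At 1 Hz they were 31.7, 50.5, and 56.2 CPM, and at 4 Hz 39.6, 54.2, and 61.2 CPM. All 6 libraries at 4 Hz and 5 of 6 at 1 Hz lay above the highest control. At 10 Hz the lowest, median, and highest levels were 13, 26.2, and 42.4 CPM, and 2 of 6 libraries lay above the controls. Means were 22.6 ± 8.76 in the control, 48.2 ± 8.55 at 1 Hz, 52.3 ± 8.64 at 4 Hz, and 26.7 ± 11.2 CPM at 10 Hz (SD, n = 6 each).

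The log2(fold change) of Bdnf was 1.09 (SE 0.26) at 1 Hz and 1.21 (SE 0.26) at 4 Hz, which is 2.14-fold and 2.31-fold higher, and 0.24 (SE 0.26) at 10 Hz. Ordered from the highest, Bdnf stood in place 122 of 13315 genes at 1 Hz and 143 at 4 Hz. All 6 libraries at 4 Hz lay above every control for 12.9% of all genes, from which nothing is read. Against 4 Hz, the log2(fold change) at 10 Hz was -0.97 (SE 0.26), with 5 of 6 libraries below the lowest at 4 Hz. Between 4 and 1 Hz it was 0.11 (SE 0.25). Bdnf had 109 to 862 counts per library and therefore rests on more reads than Ngfr. Without the 5 libraries rich in ribosomal protein counts, its level was 46.4 ± 10.4 CPM at 1 Hz (SD, n = 4) and 55.2 ± 9.16 at 4 Hz (SD, n = 3). On the TPM scale, by limma on log2(TPM + 1), its log2(fold change) was 0.88 at both frequencies, where the medians of all genes were -0.14 and -0.21.

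Ntf5, the mouse gene of neurotrophin-4, was detected in all 24 libraries at 3 to 15 counts and did not pass the filter. Its mean level was 0.745 ± 0.194 CPM in the control, 0.612 ± 0.297 at 1 Hz, 0.473 ± 0.0711 at 4 Hz, and 0.705 ± 0.387 at 10 Hz (SD, n = 6 each). In a fit without the filter its log2(fold change) was -0.30 (SE 0.34), -0.69 (SE 0.37), and -0.12 (SE 0.34) at 1, 4, and 10 Hz. All groups overlapped, and only the value at 4 Hz was larger than its SE. Ntf5 overlaps Ruvbl2 on the opposite strand. Ruvbl2 had 15131 counts in all against 171 of Ntf5, and how the counting used the strand is not given in the sources used here, so reads of the pair may not be separable.

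Ntf3, the gene of neurotrophin-3, had 2 counts in all, 1 in a library at 4 Hz and 1 in a library at 10 Hz. It was at 0 in the other 22 libraries, which allows up to 3 counts in each, or 0.418 CPM in replicate 3 at 4 Hz. No fold change is given.

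Compared per transcript length, Bdnf had a higher level than Ntf5 and Ntf3 in every group. Bdnf was at 8.88 ± 3.32 TPM in the control, 16.4 ± 2.81 at 1 Hz, 16.7 ± 3.86 at 4 Hz, and 10.3 ± 3.85 at 10 Hz (SD, n = 6 each). Ntf5 was at 0.645 ± 0.182, 0.471 ± 0.238, 0.366 ± 0.065, and 0.611 ± 0.356 TPM in the same order.

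**Figure D2:**
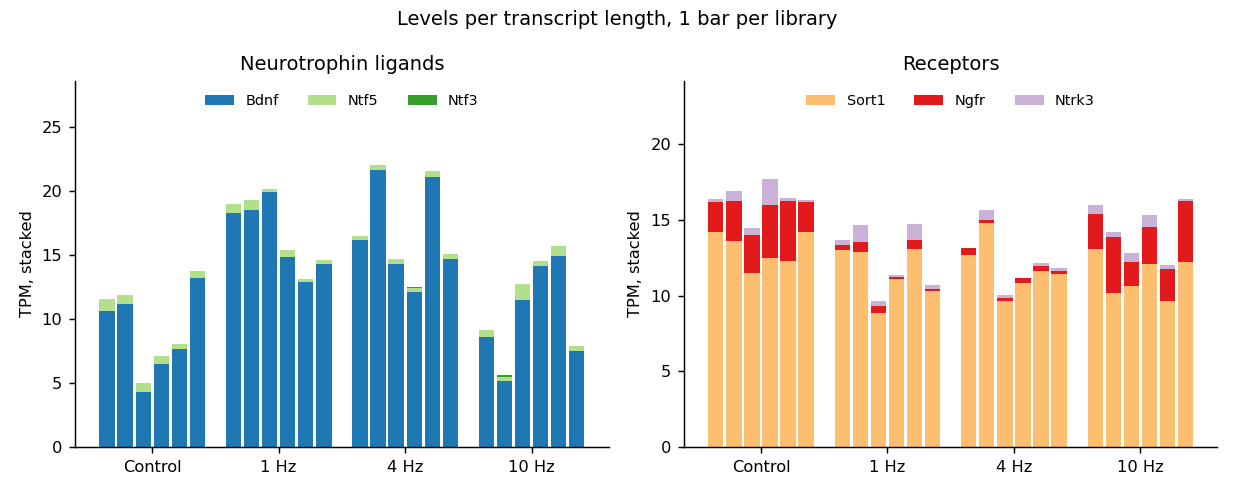
TPM (y axis, linear from 0) of the ligand genes Bdnf, Ntf5, and Ntf3 (left) and of Sort1, Ngfr, and Ntrk3 (right), stacked in 1 bar per library and grouped by condition. The Bdnf part of the ligand bars is larger at 1 and 4 Hz, where the mean is 16.4 and 16.7 TPM, than in the control at 8.88 TPM, and the Ngfr part of the receptor bars is nearly absent at 1 and 4 Hz.

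The genes around these 5 were taken from 8 lists: neurotrophin ligands, neurotrophin receptors, p75NTR partners, proteases that shed p75NTR, genes of neurotrophin processing, Trk signaling, the TNF receptor superfamily, and other neurotrophic factors. Without the 5 genes the lists held 117 genes, of which 89 were tested. Calls were made by the edgeR quasi-likelihood F test where the adjusted p was under 0.05 and the log2(fold change) was beyond 0.5 in either direction. At 1 Hz, 6 of the 89 were called higher and 8 lower, or 15.7%, against 14.9% of all 13315 genes (7.19% higher and 7.74% lower). At 4 Hz, 11 were called higher and 14 lower, or 28.1%, against 25.1% of all genes (12.8% higher and 12.3% lower). Both shares lie near those of all genes. The median log2(fold change) of the list genes was -0.13 at 1 Hz and -0.02 at 4 Hz, against 0.04 and 0.06 over all genes.

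At 10 Hz against the control, none of the 89 was called by edgeR, by DESeq2, or by limma on log2(TPM + 1), and 5 had an unadjusted p under 0.05, as had 8.07% of all genes. Of all genes, 0.0376% were called at 10 Hz, or 5 genes. Tested against 4 Hz directly, 10 Hz had 11 list genes called higher and 7 lower, or 20.2%, against 21.2% of all genes. The direction of the calls depends on the scale. By limma on log2(TPM + 1), 1 list gene was called higher and 12 lower at 1 Hz, 1 higher and 25 lower at 4 Hz, and 23 higher and 1 lower at 10 Hz against 4 Hz. All genes split the same way on that scale, with 198 higher and 1710 lower at 1 Hz, 333 and 3166 at 4 Hz, and 2806 and 291 at 10 Hz against 4 Hz. Without the 5 libraries rich in ribosomal protein counts, 6 list genes were called higher and 4 lower at 1 Hz, against 769 and 872 of all genes.

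The TNF receptor superfamily, to which p75NTR belongs, held 15 tested genes besides Ngfr. At 1 Hz 2 were called higher and 4 lower, and at 4 Hz 3 higher and 4 lower, with a median of -0.19 and -0.11. The shares called were 40% and 46.7%, against 14.9% and 25.1% of all genes, and shares of single lists were not tested. Tnfrsf25, the gene of death receptor 3, had the largest log2(fold change) of all 89 list genes. It fell from 4.42 ± 0.629 CPM in the control to 1.21 ± 0.272 at 1 Hz and 0.845 ± 0.185 at 4 Hz, and was at 4.09 ± 0.867 CPM at 10 Hz (SD, n = 6 each). All 6 libraries at 1 Hz were under the lowest control, as were all 6 at 4 Hz. The log2(fold change) at 1 Hz was -1.85 (SE 0.17, adjusted p = 2.0e-08). At 4 Hz it was -2.37 (SE 0.19, adjusted p = 6.7e-10). The test of 10 Hz against 4 Hz gave 2.26 (SE 0.19, adjusted p = 4.6e-09). Tnfrsf25 overlaps Espn on the opposite strand.

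Among the other members of the superfamily, Tnfrsf1b, the gene of TNF receptor type II, fell by 0.85 on the log2 scale at 1 Hz and by 1.00 at 4 Hz, with 6 of 6 libraries below every control at each (adjusted p = 5.0e-05 and 3.3e-06, edgeR). Fas, a death receptor gene, rose by 0.87 and 0.88 (adjusted p = 1.6e-05 and 7.1e-06), and 6 of 6 libraries exceeded the controls at each frequency, but at 4 Hz it was not called on the TPM scale at 0.46. Of all genes, 5.55% had all 6 libraries above every control at 1 Hz and 12.9% at 4 Hz, and 8.58% and 14.7% had them below. Tnfrsf19, the TROY gene, which can stand in for p75NTR beside the Nogo receptor, rose by 0.80 and 1.03 (adjusted p = 0.018 and 0.002) from 0.879 ± 0.363 CPM in the control to 1.78 ± 0.267 CPM at 4 Hz (SD, n = 6). Its call at 1 Hz was lost without the filter, at 0.76, and when either of 2 single libraries was left out, at 0.70. The most abundant member, Tnfrsf12a, the receptor of TWEAK, was at 503 TPM over all libraries. It was at -0.33 and -0.38 (adjusted p = 0.0071 and 0.0019), within the threshold on fold change, and was not called.

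The p75NTR partners held 14 tested genes, of which 2 were called higher and none lower at each of 1 and 4 Hz. That is 14.3% at each, against 14.9% and 25.1% of all genes. Rtn4r, the Nogo receptor gene, whose product uses p75NTR as a coreceptor, was at 2.48 ± 0.125 CPM in the control, 4.31 ± 0.643 at 1 Hz, 4.51 ± 0.915 at 4 Hz, and 2.75 ± 0.444 at 10 Hz (SD, n = 6 each). It rose by 0.80 at 1 Hz (adjusted p = 1.2e-04) and by 0.87 at 4 Hz (adjusted p = 2.5e-05), and at both 6 of 6 libraries exceeded the controls. This separation was found for 5.55% of all genes at 1 Hz and 12.9% at 4 Hz. Bex3, whose product binds the p75NTR intracellular domain, rose by 0.54 and 0.69 (adjusted p = 2.3e-04 and 6.9e-06). On the TPM scale, by limma on log2(TPM + 1), neither gene was called, at 0.42 and 0.38 for Rtn4r and 0.36 and 0.37 for Bex3. Arhgdia and Rhoa, genes of small GTPase signaling downstream of p75NTR, were abundant at 446 and 360 TPM and were not called. Rhoa was at 0.21 and 0.11 (adjusted p = 0.0091 and 0.12, edgeR).

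All 8 genes of p75NTR shedding passed the filter and none was called at 1, 4, or 10 Hz by edgeR or DESeq2, whereas 5, 6, and 0 had an unadjusted p under 0.05. Over all genes, 46.9%, 57.2%, and 8.07% had such a p. Limma on log2(TPM + 1) called 1 of them at 4 Hz. The list covers the sheddases Adam10 and Adam17 and the gamma-secretase subunits, of which Psenen was the most abundant at 128 TPM and Aph1a followed at 64.6 TPM. Psenen was at 0.39 and 0.43 at 1 and 4 Hz (adjusted p = 0.0057 and 0.002, edgeR), under the threshold on fold change. Of the neurotrophin receptors besides Ngfr and Sort1, only Nradd, a p75NTR relative, and Sorcs2, a sortilin relative, were tested. They stood at 21.9 and 11.1 TPM and were not called.

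Of 6 tested genes of neurotrophin processing, 1 was called lower at 1 Hz and 2 at 4 Hz, with a median of -0.10 and -0.31. The shares called were 16.7% and 33.3%, against 14.9% and 25.1% of all genes in either direction. Furin, whose product cuts neurotrophin precursors inside the cell, was at 79 ± 7.97 CPM in the control, 54.4 ± 7.74 at 1 Hz, 52.1 ± 6.08 at 4 Hz, and 85.3 ± 10.9 at 10 Hz (SD, n = 6 each). At both frequencies 6 of 6 libraries lay under the control range, and Furin fell by 0.54 at 1 Hz (adjusted p = 1.7e-04) and by 0.60 at 4 Hz (adjusted p = 3.1e-05). Without the 5 libraries rich in ribosomal protein counts it fell by 0.43 and 0.49, under the threshold on fold change. Plau, the urokinase gene, fell by 0.53 at 4 Hz (adjusted p = 0.041), with 2 of 6 libraries below the controls, and lost its call when any of 7 single libraries was left out. Plau was also not called, at -0.58, without the 5 libraries rich in ribosomal protein counts. Plat, the tissue plasminogen activator gene, at 36.6 TPM, was at 0.21 and 0.35 (adjusted p = 0.09 and 0.0048, edgeR) and was not called.

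Trk signaling held 28 tested genes. At 1 Hz none was called higher and 1 lower, and at 4 Hz 2 higher and 4 lower, with a median of -0.14 and -0.08. The shares called were 3.57% and 21.4%, against 14.9% and 25.1% of all genes. At 4 Hz the Ras activator gene Sos2 fell by 0.78 (adjusted p = 5.7e-06) and the adaptor gene Crk by 0.61 (adjusted p = 1.0e-05), each with 6 of 6 libraries below the controls. Pik3r1, a regulatory subunit gene of PI3 kinase, rose by 0.61 (adjusted p = 9.2e-05), but not on the TPM scale, where it was at 0.35 and not called. At 1 Hz only Sos2 was called, at -0.51 (adjusted p = 0.001), and it was not called at -0.40 without the 5 libraries rich in ribosomal protein counts.

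Of 15 tested genes of other neurotrophic factors, 2 were called higher and 2 lower at 1 Hz, and 4 higher and 4 lower at 4 Hz. The shares called were 26.7% and 53.3%, against 14.9% and 25.1% of all genes. Gdnf, which supports motor neurons, was at 30.1 ± 8.38 CPM in the control, 43.7 ± 10.4 at 1 Hz, 54.3 ± 7.11 at 4 Hz, and 25.8 ± 4.71 at 10 Hz (SD, n = 6 each). It rose by 0.85 at 4 Hz (adjusted p = 2.9e-04), with 6 of 6 libraries above the controls, and by 0.54 at 1 Hz (adjusted p = 0.017), with 4 of 6. The value at 1 Hz was not called on the TPM scale, at 0.32, without the filter, at 0.50, or without the 5 libraries rich in ribosomal protein counts, at 0.55. Clcf1, a cytokine gene, fell by 0.76 at 1 Hz and 0.91 at 4 Hz (adjusted p = 4.7e-08 and 1.6e-09), with 6 of 6 libraries below the controls at each. Lif fell by 0.72 and 1.02 (adjusted p = 0.012 and 6.7e-04), and without the 5 libraries it was not called at 1 Hz, at -0.50. Cntf fell by 0.97 at 4 Hz (adjusted p = 0.043), a call that did not hold with the replicate block, without those libraries, or when any of 9 single libraries was left out. Manf, at 543 TPM, was at 0.33 and 0.42 (adjusted p = 0.008 and 6.4e-04, edgeR), under the threshold on fold change, and was not called. The shared receptor subunit gene Il6st, at 70.1 TPM, was at -0.04 and 0.06 and was not called.

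**Figure D3:**
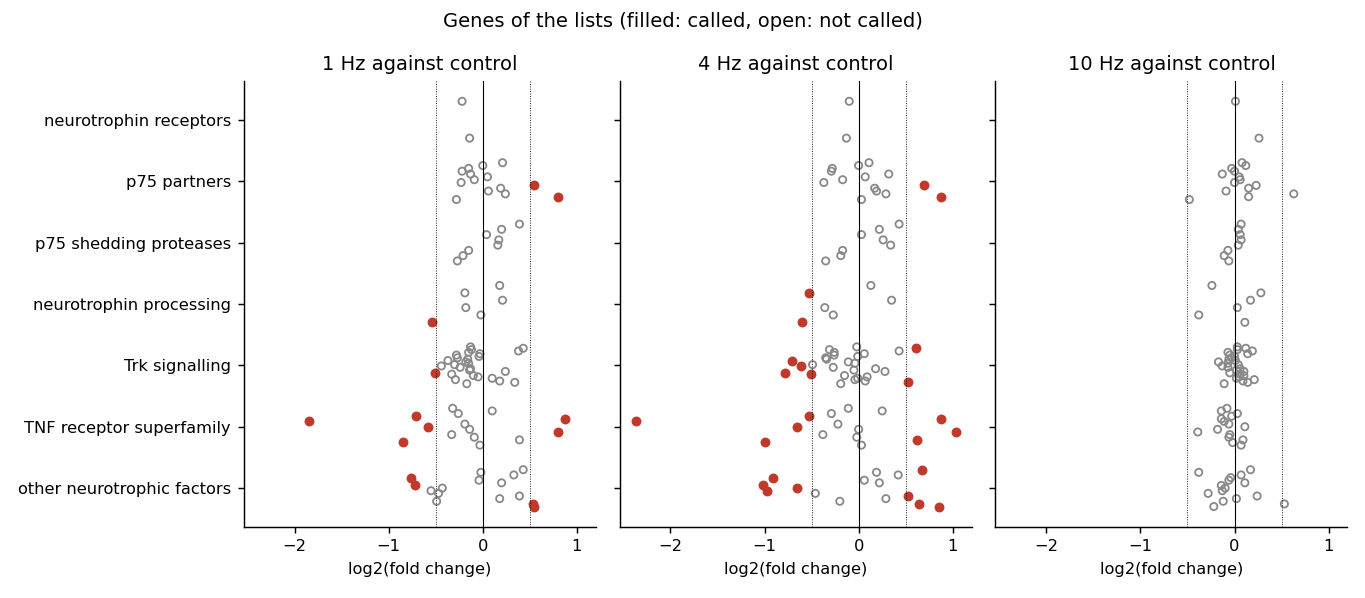
Log2(fold change) against the control (x axis) at 1, 4, and 10 Hz of the tested genes of each list with at least 2 of them (y axis, 1 row per list), without the 5 chosen genes. Filled points are genes called by edgeR and open points are not called, and dotted lines mark the fold change threshold of 0.5. The points called number 14 at 1 Hz, 25 at 4 Hz, and 0 at 10 Hz, and the point farthest to the left is Tnfrsf25.

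The genes whose pattern was most like that of Ngfr, by Pearson correlation of log2 CPM over the 24 libraries, were Ppp1r9b (r = 0.97), Pax7 (r = 0.97), Ahdc1 (r = 0.97), and Tubb3 (r = 0.96). These values describe libraries that fall into the same 4 groups and share depth and culture. After the mean of each group was removed, they were 0.72, 0.76, 0.61, and 0.77. Pax7, the marker gene of satellite cells, was at 6.06 ± 0.894 CPM in the control, 2.07 ± 0.805 at 1 Hz, 2.09 ± 0.391 at 4 Hz, and 6.28 ± 0.511 at 10 Hz (SD, n = 6 each). Tubb3, a tubulin gene best known from neurons, was at 76.6 ± 12.9, 43.6 ± 5.78, 43.8 ± 5.44, and 89.7 ± 11.2 CPM in the same order.

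For Bdnf the genes were Rnd3 (r = 0.99), Mdm2 (r = 0.96), Arid5b (r = 0.95), and Tent5a (r = 0.95). With group means removed, these were 0.98, 0.92, 0.90, and 0.92, so the libraries high in Bdnf within a group were also high in these genes. Rnd3, the gene of a small GTPase, was at 151 ± 37.2 CPM in the control, 224 ± 29.1 at 1 Hz, 243 ± 30.4 at 4 Hz, and 159 ± 40 at 10 Hz (SD, n = 6 each). Mdm2, a target gene and the main inhibitor of p53, was at 316 ± 53.5, 415 ± 39.3, 445 ± 28.9, and 327 ± 56.1 CPM. For Sort1 genes with a like pattern were Pgm5 and Srl (r = 0.92 each) and Limch1 (r = 0.89), and r was 0.92, 0.90, and 0.83 with group means removed. Srl encodes sarcalumenin of the sarcoplasmic reticulum.

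**Figure D4:**
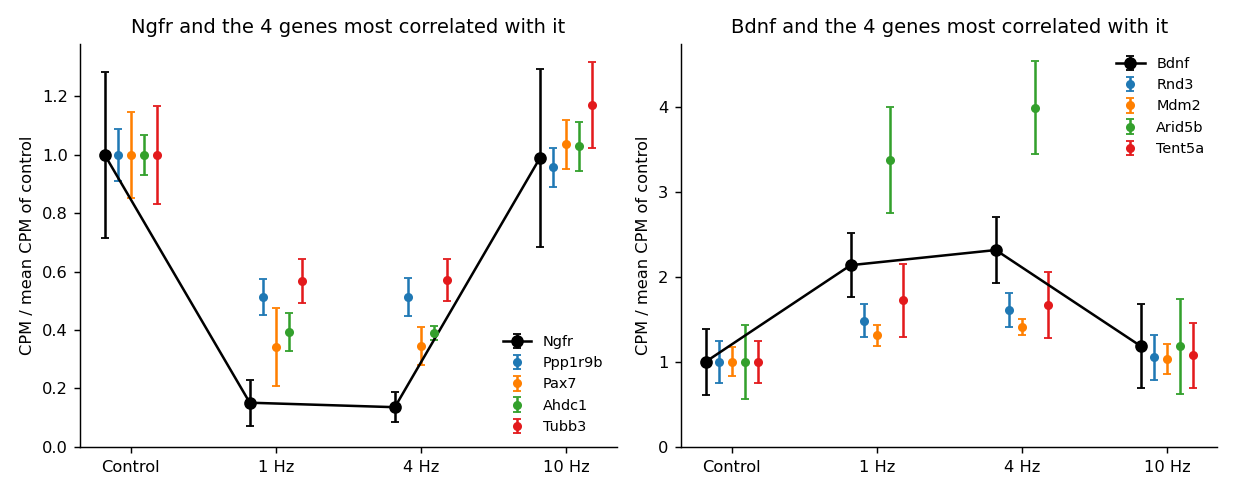
CPM divided by the mean CPM of the control (y axis, linear from 0) for Ngfr (left) and Bdnf (right), each with its 4 most correlated genes, as mean ± SD of 6 libraries per condition. Ngfr and its 4 genes are low at 1 and 4 Hz, with Ngfr at 0.901 and 0.811 CPM against 5.96 CPM in the control, and Bdnf and its 4 genes are high there.

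Ngfr is also made by glia, neurons, and mural cells. The markers of glia and neural crest summed to 7.55 to 8.61 TPM in the control, 5.32 to 9 at 1 Hz, 6.76 to 9.91 at 4 Hz, and 7.19 to 9.94 at 10 Hz, with 3 of 9 genes past the filter and Sox10, Foxd3, S100b, and Gfap under 1 TPM in every library. The 8 neuron markers summed to 43.8 to 55.8, 45.8 to 74.6, 43.9 to 74.9, and 48 to 55.2 TPM, most of it Stmn2. Rbfox3, Snap25, Syt1, Elavl3, and Elavl4 were under 1 TPM in every library. At 4 Hz, 2 of the 3 tested neuron markers were called, Stmn2 at 0.57 (adjusted p = 4.0e-05, edgeR) and Elavl3 at -1.11 (adjusted p = 0.021). Neither was called by limma on log2(TPM + 1), and no neuron marker was called at 1 or 10 Hz. The 7 fibroblast and mural markers summed to 152 to 205, 128 to 274, 150 to 247, and 175 to 211 TPM, most of it Dcn. Of these markers, 5 passed the filter, and Thy1 and Rgs5 were under 1 TPM. Among the 7 markers, Pdgfrb fell by 1.10 at 1 Hz (adjusted p = 3.3e-04, edgeR) and by 1.50 at 4 Hz (adjusted p = 7.7e-06). Col1a1 fell by 0.70 and 0.71 (adjusted p = 0.021 and 0.014). The other 3 tested genes of the list were not called. Pdgfra was at 0.28 and 0.36 (adjusted p = 0.041 and 0.0072), Dcn at 0.39 and 0.43 (adjusted p = 0.019 and 0.0064), and Cspg4 at -0.30 and -0.36 (adjusted p = 0.2 and 0.12). The part of these genes in the values of Ngfr was not tested. In these bulk libraries, fewer cells with Ngfr and less Ngfr RNA per cell cannot be told apart.

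Of the undifferentiated myoblast markers, Pax7 fell by 1.58 at 1 Hz and 1.53 at 4 Hz (adjusted p = 4.0e-07 and 3.6e-07, edgeR), whereas Myf5 rose by 1.32 and 1.17 (adjusted p = 2.7e-08 and 9.2e-08) and Spry1 by 0.98 and 1.31 (adjusted p = 3.1e-06 and 2.2e-08). Mki67, a proliferation marker under 1 TPM in every library, fell by 1.15 at 4 Hz (adjusted p = 0.029). Cd34, Id3, and Top2a were not called. Of the 8 myotube markers, Myog, a differentiation factor, fell by 1.34 and 1.47 (adjusted p = 1.2e-12 and 1.5e-13), and the other 7 were not called, with values between -0.16 and 0.06 at 1 Hz and between 0.03 and 0.27 at 4 Hz. No gene of these 2 lists was called at 10 Hz. The part of these genes in the level of Ngfr was not tested.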

How the data were processed

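RNA of 24 libraries of C2C12 tissues was analysed, with 6 replicates each of the control, 1, 4, and 10 Hz. According to the methods, libraries were made after poly(A) selection and mapped to GRCm39 with the nf-core/rnaseq pipeline. Per the labels, ribodepletion was used for samples with little RNA, which are not named. The authors deposited 2 kinds of value per gene and library, the estimated count of salmon, which is not normalized, and the TPM from the same run, which is corrected for transcript length. The methods also name BWA-MEM for mapping and bedtools for quality control, which the submitters' processing notes give as versions 0.7.12-r1039 and 2.25.0. The methods give a different version of bedtools. Whether the deposited values used BWA is not given in the sources used here.

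The 5 genes, the lists, and the alternatives were chosen with earlier results of these data known. Counts were rounded, filtered by filterByExpr (minimum count 10, minimum total 15), scaled by TMM, and fitted in edgeR 4.0.16 (R 4.3.3) with 1 mean per condition. A quasi-likelihood F test with Benjamini-Hochberg adjustment over 13315 genes was used. The fit was also run on simulated counts of 2 groups. Their spread was taken from the control, so this run does not cover the libraries rich in ribosomal protein counts. The genes named are the 5 genes, Trk receptor genes, up to 4 called genes of each list with the largest change, the 2 most abundant uncalled genes of each list, the 4 most correlated genes of each gene past the filter, and marker genes by list. Some genes that this rule takes are not reported here. The count range of 8052369 to 18159144 per library limits genes such as Ngfr. Alternatives were other scaling factors, filters, 2 groups per fit, a replicate block, DESeq2 1.42.0, limma 3.58.1 on log2(TPM + 1) and log2(TPM + 0.1) (genes reaching 1 TPM in at least 6 libraries), no threshold on fold change, and leaving out single libraries. Leaving out libraries over 6% of ribosomal protein counts was chosen after seeing the data. GENCODE M39 held 98.9% of the gene identifiers.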

Additional observations from a re-analysis of the deposited data

Results flagged for a closer look

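Among 84 groups of 6 libraries, 3 had a single library far from the other 5, and chance alone would give about 1 in 20 groups. Bdnf in replicate 5 at 1 Hz was at 31.7 CPM, against 47.9 to 56.2 CPM in the other libraries at 1 Hz. Bex3 in replicate 1 of the control was at 34.9 CPM, against 26.4 to 29 CPM. Sos2 in replicate 1 of the control was at 50.8 CPM, against 57.9 to 60.9 CPM.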

How the results depend on the processing

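Of the values for Ngfr, Bdnf, and Sort1, those past the spread between replicates were all on the TPM scale. By limma on log2(TPM + 1), Ngfr was at -1.43 at 1 Hz and -1.51 at 4 Hz. With a pseudocount of 0.1 it was at -2.68 and -2.84. Sort1 was at -0.18 and -0.14 with the pseudocount of 1 and at -0.19 and -0.15 with that of 0.1. Leaving out single libraries gave Ngfr -3.02 to -2.59 at 1 Hz, -3.04 to -2.78 at 4 Hz, and -0.16 to 0.10 at 10 Hz. Bdnf ranged from 0.95 to 1.23, 1.04 to 1.35, and 0.06 to 0.38, and Sort1 from -0.04 to 0.09, 0.11 to 0.21, and -0.24 to -0.16.

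Calls among list genes then ranged from 9 to 15 at 1 Hz, with 9 without replicate 4 at 1 Hz, 20 to 25 at 4 Hz, 0 at 10 Hz, and 17 to 21 between 10 and 4 Hz. Calls among all genes ranged from 1651 to 2436, 3017 to 3645, 2 to 18, and 2436 to 3172. Without a threshold on fold change, 39 list genes and 4962 of all genes were called at 1 Hz, 52 and 6842 at 4 Hz, and 47 and 6163 between 10 and 4 Hz. Without the 5 libraries rich in ribosomal protein counts, all genes gave 2224 calls at 4 Hz, 10 at 10 Hz, and 1685 between 10 and 4 Hz. At 10 Hz the 5 calls became 23 with 2 groups in the fit, 21 with DESeq2, and 0 by limma on either TPM scale. The cause was not tested.

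Single libraries ended a few calls of named genes. Without replicate 3 or 4 at 1 Hz, Bex3 was at 0.48 and 0.49 there. Tnfrsf19 at 1 Hz was at 0.70 without control replicate 4 or 1 Hz replicate 4. Sos2 at 1 Hz was at -0.50 to -0.48 without control replicates 3 or 5 or 1 Hz replicate 4. Gdnf at 1 Hz was at 0.41 to 0.50 without control replicates 3 or 4 or 1 Hz replicates 1, 3, or 4. Plau at 4 Hz was at -0.55 to -0.41 without control replicates 1, 2, or 4 or 4 Hz replicates 1, 2, 4, or 6. Cntf at 4 Hz was at -1.02 to -0.79 without any control but replicate 3 or any of 4 Hz replicates 1, 2, 4, and 6.

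The correlation of deviations from group means over 36 pairs of same-numbered libraries ran from -0.332 to 0.242 and exceeded 0.1 in 3. Pairs with different numbers were not compared, so these values alone do not show whether the numbers link libraries. With the replicate block, Ngfr was at -2.79, -2.88, and -0.01, Bdnf at 1.10, 1.21, and 0.24, and all genes gave 3 calls at 10 Hz. The block ended the call of Cntf at 4 Hz, at -1.01. Depth limits Ngfr at 1 and 4 Hz and Ntf5, Ntf3, and the Trk genes throughout.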
